A study of Mus musculus with 12 samples.

Results

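The genes for the proteins of the cytosolic ribosome were followed through 12 heart RNA libraries. Members were rows whose symbol is Rpl or Rps with a number, followed by at most 1 letter (a, x, l or y) and 1 digit. Rplp0, Rplp1, Rplp2 and Rpsa were added and Rpl3l was left out. The mean level had to reach 1 CPM (counts normalised to a library's total). Some other Rpl symbols with longer endings do not match, also above that level, and are not members. The symbol rule matched 82 of 17397 genes, and 80 reached the level: 45 of the large subunit, 32 of the small subunit and 3 of the stalk. Outside it were Rpl39l, with a mean of 0.129 CPM, and Rpl32l, with 0.0236 CPM. The lowest members inside it were Rpl22l1 with 14.9 CPM, Rps6 with 18.0 CPM and Rpl7l1 with 57.4 CPM. All 80 members passed the filter on low counts. Levels are CPM scaled for library composition (TMM, the trimmed mean of M values), called scaled CPM below.

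All mice were wild-type C57BL/6J males, 8 weeks old, and each group had 3 libraries. Tumour mice received 100000 cells of B16F10, a mouse melanoma line, by tail vein from week 2 and did not train. Tumour trained mice received the same cells and also ran on a treadmill on 5 days a week for 4 weeks, with sessions, after the adaptation week, of 35 min at 12 m/min that began with 5 slower minutes at 6 m/min. Trained mice ran without receiving cells, and control mice are labelled as saline and stayed in their cages. Whether trained mice received saline is not given. Nothing in the labels ties each library to a mouse of its own, so the p-values reflect the spread among libraries, which may be technical. The labels give cachexia, the tissue wasting of cancer, as the purpose of the injection. The tissue label is heart, although 1 protocol speaks of livers. The 16 cardiomyocyte genes checked were present in all libraries, and 5 hepatocyte genes summed to at most 6.32 scaled CPM.

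Each ribosome carries 1 copy of most of these proteins, and they are produced in step with ribosomal RNA. Their mRNAs begin with a run of pyrimidines at the cap, the 5′ terminal oligopyrimidine (TOP) motif, through which the growth regulator mTORC1 controls their translation. Adult heart and skeletal muscle also express Rpl3l, a striated muscle paralog that takes the place of Rpl3 in the ribosome.

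RefSeq (build GRCm38.p6) gave a start window, 250 bases before to 50 after the transcription start, for 60 of the 80 members. An unbroken run of at least 8 pyrimidines (C or T) that reaches into the 10 bases on either side of the start was present in 29 of the 60 members (48.3%), against 15.8% of all 27025 genes with a window. The letters CCGGAAG, an ETS-type motif, were found on either strand in 25 members (41.7%), against 9.93% of all genes. The letters CACGTG, the E-box read by Myc and Max, were found in 6 members (10.0%), against 8.09%, and AAGATGG, of the YY1 type, in 10 (16.7%), against 7.28%. Shown here are 60 bases, 40 before the start and 20 from it on, for members among the most raised in the library called tumour 1 below, with the longest such run in capitals. Members with 1 window only were eligible, and Rpl3 and Rpl32 are named without one. Rpl12 lies at chr2:32961672-32961731 (+), Rps26 at chr10:128626487-128626546 (-), Rps12 at chr10:23787190-23787249 (-), Rps6 at chr4:86857348-86857407 (-) and Rpl4 at chr9:64173347-64173406 (+).
Rpl12: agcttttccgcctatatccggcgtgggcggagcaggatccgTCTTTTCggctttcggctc
Rps26: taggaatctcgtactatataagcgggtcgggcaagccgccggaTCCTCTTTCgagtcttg
Rps12: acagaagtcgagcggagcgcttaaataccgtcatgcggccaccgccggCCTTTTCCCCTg
Rps6: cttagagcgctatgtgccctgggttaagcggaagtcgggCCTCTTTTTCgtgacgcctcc
Rpl4: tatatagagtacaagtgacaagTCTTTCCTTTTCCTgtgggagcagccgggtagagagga

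The same window follows for members among the least raised there. Rps27 lies at chr3:90213629-90213688 (-), Rps15 at chr10:80292391-80292450 (+), Rpl24 at chr16:55966235-55966294 (+), Rplp2 at chr7:141447611-141447670 (+) and Rpl38 at chr11:114668540-114668599 (+). The run in capitals had 7 to 14 bases in the 5 raised members. It had 9 bases in Rps27 and 10 in Rplp2 and Rpl38, and it had 3 bases in Rps15 and 2 in Rpl24. Both sets thus held long runs, and a match describes these letters only.
Rps27: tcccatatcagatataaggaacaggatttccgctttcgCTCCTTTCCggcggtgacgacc
Rps15: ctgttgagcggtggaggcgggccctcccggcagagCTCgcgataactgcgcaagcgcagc
Rpl24: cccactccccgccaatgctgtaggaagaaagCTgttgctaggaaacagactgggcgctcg
Rplp2: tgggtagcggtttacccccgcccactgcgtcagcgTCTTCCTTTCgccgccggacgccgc
Rpl38: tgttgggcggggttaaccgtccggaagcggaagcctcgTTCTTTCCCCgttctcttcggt

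In the hearts of tumour mice the ribosomal protein genes took a share of the counts that ranged widely between the 3 libraries. Ribosomal protein genes held 5.01% of all counts in tumour 1, with a 95% Wilson interval of 5.00 to 5.02% that covers counting error only. The share was 3.21% in tumour 2 (interval 3.20 to 3.22%) and 2.22% in tumour 3 (interval 2.21 to 2.23%). They held 2.23 to 2.31% in tumour trained, 2.22 to 2.39% in trained and 2.18 to 2.35% in control libraries. Tumour 1 and tumour 2 stood above all 9 libraries of the other groups, and tumour 3 lay inside their range. The mean share was 3.48 ± 1.42% in tumour, 2.26 ± 0.0424% in tumour trained, 2.32 ± 0.0915% in trained and 2.25 ± 0.0867% in control libraries (SD, n = 3 each). Total counts were 8843909 to 13344847 per library.

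**Figure D1:**
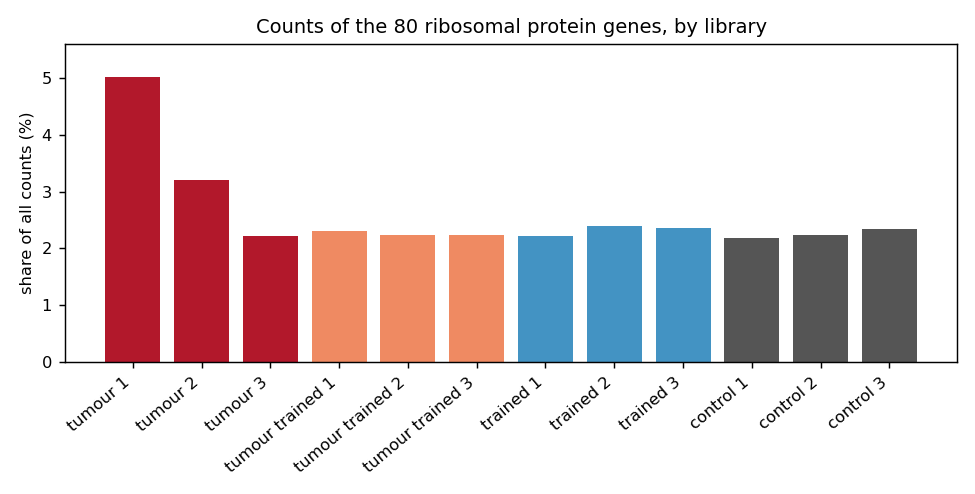
Share of all counts held by the 80 ribosomal protein genes (y axis, percent) in each of the 12 libraries (x axis, 1 bar each, coloured by group). Tumour 1 reaches 5.01% and tumour 2 reaches 3.21%, and the other 10 bars lie between 2.18 and 2.39%.

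Marker genes of melanocytes, cycling cells, cardiomyocytes and endothelium moved with this split, and those of macrophages stood out in tumour 2 only. The 7 melanocyte genes summed to 9402, 4775 and 81.0 scaled CPM in tumour 1, 2 and 3, and to 47.4 to 81.7 in the other groups. Mitf, which the heart also expresses, made up most of the sum in tumour 3 and in the other groups. Tyrp1, a melanin enzyme, was at 3670, 1510 and 1.38 scaled CPM in tumour 1, 2 and 3 and at 0 in all 9 libraries of the other groups. Pmel, of the melanosome, was at 1823, 897 and 2.03 scaled CPM in tumour 1, 2 and 3 and at 0 to 0.706 in the other groups. In tumour 3 the log2 differences of Tyrp1 and Pmel from control were 6.92 and 3.28, and both were above every library of the other groups there. Both passed the filter on low counts only because tumour 3 reached it beside tumour 1 and 2, so a test of tumour 3 depends on its own level. Mlana and Tyr, at 0.462 and 0.369 scaled CPM in tumour 3, did not pass that filter. The 12 cell-cycle genes summed to 1558, 653 and 58.3 scaled CPM in tumour 1, 2 and 3, and to 53.8 to 64.9 in the other groups. The 16 cardiomyocyte genes summed to 32897, 91165 and 164703 scaled CPM in tumour 1, 2 and 3, and to 158030 to 177561 in the other groups. The 10 endothelial genes summed to 721, 1463 and 2259.95 scaled CPM in tumour 1, 2 and 3, and to 1799.55 to 2094 in the other groups. Their median log2 differences from control were -2.00, -0.61 and -0.16, against 0.097, 0.082 and 0.0063 over all genes. The 10 macrophage genes summed to 421, 710.2 and 370.2 scaled CPM in tumour 1, 2 and 3, and to 348 to 506 in the other groups. Only tumour 2 lay outside that range, and the median log2 differences were 0.13, 0.72 and -0.18. The 10 fibroblast genes summed to 1727, 3107 and 2308 scaled CPM in tumour 1, 2 and 3, and to 2256 to 2742 in the other groups. For them tumour 1 was below that range and tumour 2 above it. The 6 neutrophil genes summed to 4.13, 22.2 and 8.58 scaled CPM in tumour 1, 2 and 3, and to 1.82 to 6.94 in the other groups. The part of these markers in the results below was not tested. In bulk tissue, fewer cells of a type and less RNA per cell cannot be told apart. Results for the tumour group are therefore given for the group, for each library singly and without tumour 1 and 2.

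On levels per kilobase of transcript, members differed widely within the heart. Rps2, of the small subunit at the mRNA entry, had 1085 scaled CPM per kb over all libraries, Rpl23a 987 and Rps15 855, the 3 highest. Rplp0, the core of the stalk that recruits the translation factors, had 711 scaled CPM per kb, and Rplp1, its partner, 661. Rps6, the small-subunit protein phosphorylated by S6 kinase, had 20.6 scaled CPM per kb, the lowest of all. None of the 12 values of Rps6 was a whole number, nor were those of Rpl5, Rpl23, Rpl31, Rpl37 and Rplp2, and 10 other members had 1 to 11 such values. How these values arose was not tested, and the levels of these members are uncertain where reads are shared with near-identical copies. The paralogs Rpl7l1 and Rpl22l1 were also low, at 22.01 and 26.9 scaled CPM per kb. The median spread of a member over the 3 libraries of a group, as the SD in percent of the mean, was 27.3% in tumour, 3.17% in tumour trained, 8.83% in trained and 6.90% in control libraries. In tumour libraries it ran between 5.15% for Rps27 and 64.9% for Rpl3.

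With the tumour libraries taken as a group against control, members leaned upward and 1 was called. A gene was called at an adjusted p below 0.05 (Benjamini-Hochberg over 12778 genes) in edgeR's quasi-likelihood test. Of the 80 members 1, Rpl3, was higher and none lower, which is 1.25% of members against 6.79% of all genes called in either direction (5.33% higher and 1.46% lower). The median log2 difference was 0.37 over members and 0.11 over all genes, and 77 of 80 members were above 0. The median over members was 0.13 without tumour 1, 0.49 without tumour 3 and 0.0098 without tumour 1 and 2. At an unadjusted p below 0.05 there were 26 members (32.5%), against 34.4% of all genes, and DESeq2 called 8, against 17.8% of all genes. In 9 of 80 members all tumour libraries were above all control libraries, against 14.2% of all genes.

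Rpl3, which lies beside the catalytic centre of the large subunit, had 741, 438 and 161 scaled CPM in tumour 1, 2 and 3, against 158, 168 and 160 in control libraries. Tumour 1 and 2 were far above every control library and tumour 3 lay among them, so the groups overlapped. The log2 difference was 1.47 ± 0.39 (SE), with an adjusted p of 0.0483 (edgeR). It was 0.0052 with an adjusted p of 0.995 without tumour 1 and 2, and the call was lost when any 1 library other than tumour 3 was left out (adjusted p 0.0658 to 0.155). Without tumour 3 the log2 difference was 1.82 with an adjusted p of 3.39e-05 (edgeR).

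The members next to Rpl3 by p missed the threshold. Rps18, in the head of the small subunit, had 381, 295 and 185 scaled CPM in tumour libraries, against 172, 173 and 174 in control libraries, and Rpl10a, of the mobile L1 stalk, had 412, 311 and 220.4 against 195, 204 and 209.8. Rps26, at the mRNA exit and a gene of Diamond-Blackfan anaemia in humans, had 701, 410 and 267 scaled CPM in tumour libraries, against 248, 237 and 261 in control libraries. In these 3 genes the groups did not overlap, tumour 3 standing just above the highest control library. Their log2 differences were 0.73 ± 0.22, 0.63 ± 0.20 and 0.88 ± 0.28, with adjusted p-values of 0.0604, 0.0683 and 0.0673 (edgeR). Without tumour 1 the differences were 0.46, 0.38 and 0.43. Rpl32, of the large subunit, was at 866, 465 and 270.3 scaled CPM in tumour libraries, against 249, 250.1 and 289 in control libraries, with a log2 difference of 1.02 ± 0.32 (adjusted p 0.0676, edgeR) that was 0.47 without tumour 1. At the low end, Rplp2 had 286, 210.3 and 215 scaled CPM in tumour libraries, against 234, 226 and 252 in control libraries. Its log2 difference of -0.0041, and those of Rpl38 (-0.028) and Rps29 (-0.056), turned to 1.57, 1.59 and 1.39 when libraries were scaled to the cardiomyocyte genes. That scaling put the median of all genes at 1.54, against 0.11 with TMM, and called all 80 members. Rps29 was thus below the median of all genes with either scaling. Scaling by library size alone put the median of all genes at 0.32 and called 8 members. The median of members above that of all genes was 0.26 with TMM, 0.30 with library size and 0.47 with the cardiomyocyte scaling.

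Taken singly, the 3 tumour libraries gave 3 different pictures. In these tests a lone library is assumed to vary like the control, trained and tumour trained libraries, and each compares that library, not the condition. In tumour 1, 69 of 80 members were higher and none lower, against 67% of all genes called in either direction (35.6% higher and 31.4% lower). At an unadjusted p below 0.05 there were 71 members, against 70% of all genes. The median log2 difference was 0.74 over members and 0.097 over all genes, and 76 members were above all control libraries, against 48.2% of all genes. In tumour 2, 26 members were higher and none lower, against 32.9% called in either direction and 19.7% called higher, with medians of 0.30 over members and 0.082 over all genes. At an unadjusted p below 0.05 there were 42 members, against 42.6% of all genes. In tumour 2, 61 members were above all control libraries and 4 below, against 45.4% and 33.6% of all genes. The count of 26 was 13 without control 1, 15 without control 2, 16 without tumour trained 2 or 3, 39 without trained 2 and 17 with DESeq2's size factors. In tumour 3 none was called by edgeR and 1 had an unadjusted p below 0.05, against 1.41% of all genes called (0.861% higher and 0.548% lower) and 13% at an unadjusted p below 0.05. Its median was -0.00079 over members, with 11 above and 12 below all control libraries, against 31.9% and 29% of all genes. All 80 members were higher in tumour 1 than in tumour 2. Set against all 9 libraries of the other groups, 75 members were above every one in tumour 1, 57 in tumour 2 and 3 in tumour 3.

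**Figure D2:**
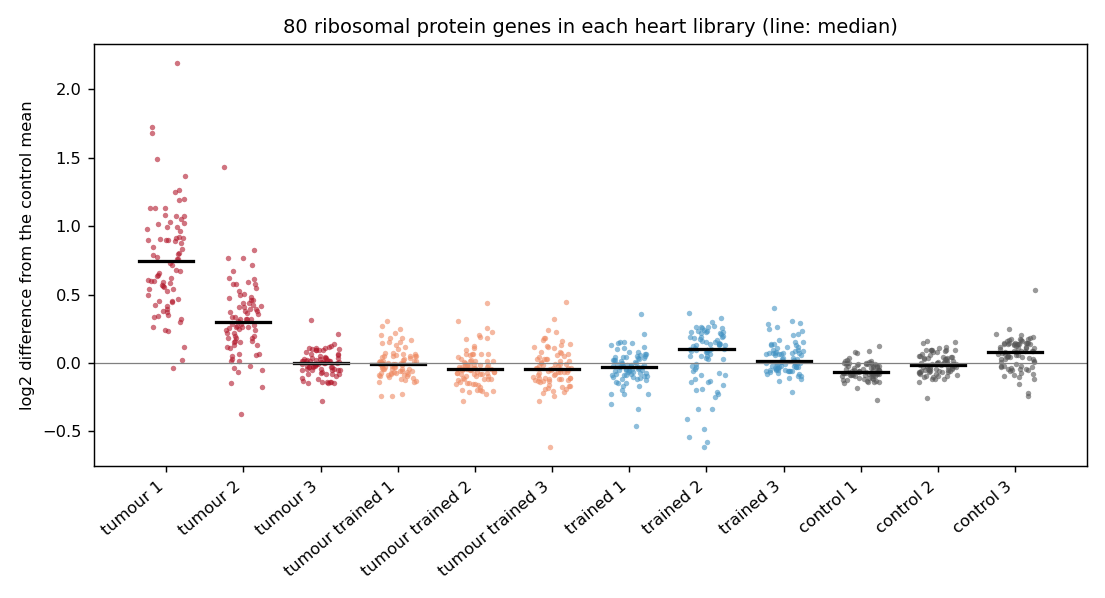
Log2 difference of each of the 80 members from its control mean (y axis, 1 point per member, horizontal line the median) in each library (x axis). The medians are 0.74 in tumour 1 and 0.30 in tumour 2, and between -0.066 and 0.10 in the other 10 libraries.

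Both subunits were represented among the raised members. In tumour 1, 42 of 45 large-subunit members were higher with a median log2 difference of 0.75, and 25 of 32 small-subunit members with a median of 0.71. In tumour 2 the counts were 13 of 45 and 13 of 32, with medians of 0.32 and 0.27. In tumour 3 the medians were -0.0054 and 0.0053. Among the 3 stalk members, Rplp1 was at 631, 404 and 271 scaled CPM in tumour libraries, against 275, 278 and 347 in control libraries. Rplp2, which pairs with it on the stalk, stood apart from it in tumour 1, with log2 differences of 1.07 for Rplp1 and 0.27 for Rplp2 (not called). Rplp0 was at 1235, 1045 and 973 scaled CPM in tumour libraries, against 882, 889 and 1056 in control libraries.

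The difference in tumour 1 varied between members by more than 2 log2 units. The highest were Rpl3 at 2.19, Rpl32 at 1.72, Rpl12 at 1.68, Rps26 at 1.49 and Rps12 at 1.37 on the log2 scale, with adjusted p-values of 6.07e-08 to 2.05e-06 (edgeR). Rpl12, at the base of the stalk, had 798, 424 and 239 scaled CPM in tumour libraries, against 230.3, 243 and 273 in control libraries, so tumour 3 fell among the controls. Rps12, of the small subunit, had 545, 319 and 198 scaled CPM in tumour libraries, against 211, 208 and 215 in control libraries, with tumour 3 below all 3 controls. At the other end were Rps29 at -0.039, Rps27 at 0.016, Rps21 at 0.12, Rps15 at 0.23 and Rpl24 at 0.24, none called. Rps27 had 288, 287 and 314 scaled CPM in tumour libraries, against 258, 301 and 297 in control libraries. Rps29 had 228, 211 and 238 scaled CPM in tumour libraries, against 222, 227 and 255 in control libraries, and its difference in tumour 1 was 0.37 with library size alone and 2.35 with the cardiomyocyte scaling. The medians of all genes were then 0.50 and 2.48, so Rps29 was below them in both.

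In tumour 2 the highest were Rpl3 at 1.44, Rpl32 at 0.82, Rpl12 and Rps18 at 0.77 and Rps26 at 0.72, all called. Among the lowest were Rpl36 at -0.38, Rplp2 at -0.18, Rps29 at -0.15 and Rpl38 at -0.11, none called. With the cardiomyocyte scaling they were at 0.54 to 0.82, below the median of all genes, which that scaling put at 1.00, against 0.082 with TMM. Rpl36, of the large subunit, had 265, 131 and 169 scaled CPM in tumour libraries, against 153, 162 and 195 in control libraries, so tumour 1 and tumour 2 lay on opposite sides of the controls. In tumour 3 the highest was Rps13 with a log2 difference of 0.31 ± 0.13 and an adjusted p of 0.351 (edgeR), and the lowest was Rpl38 at -0.33 with an adjusted p of 0.759. Rpl38, known in mouse embryos for its part in translating Hox mRNAs, was at 329.5 scaled CPM in control 3 and at 189 and 190.2 in control 1 and 2, so control 3 sets that difference: tumour 3 had 188.

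**Figure D3:**
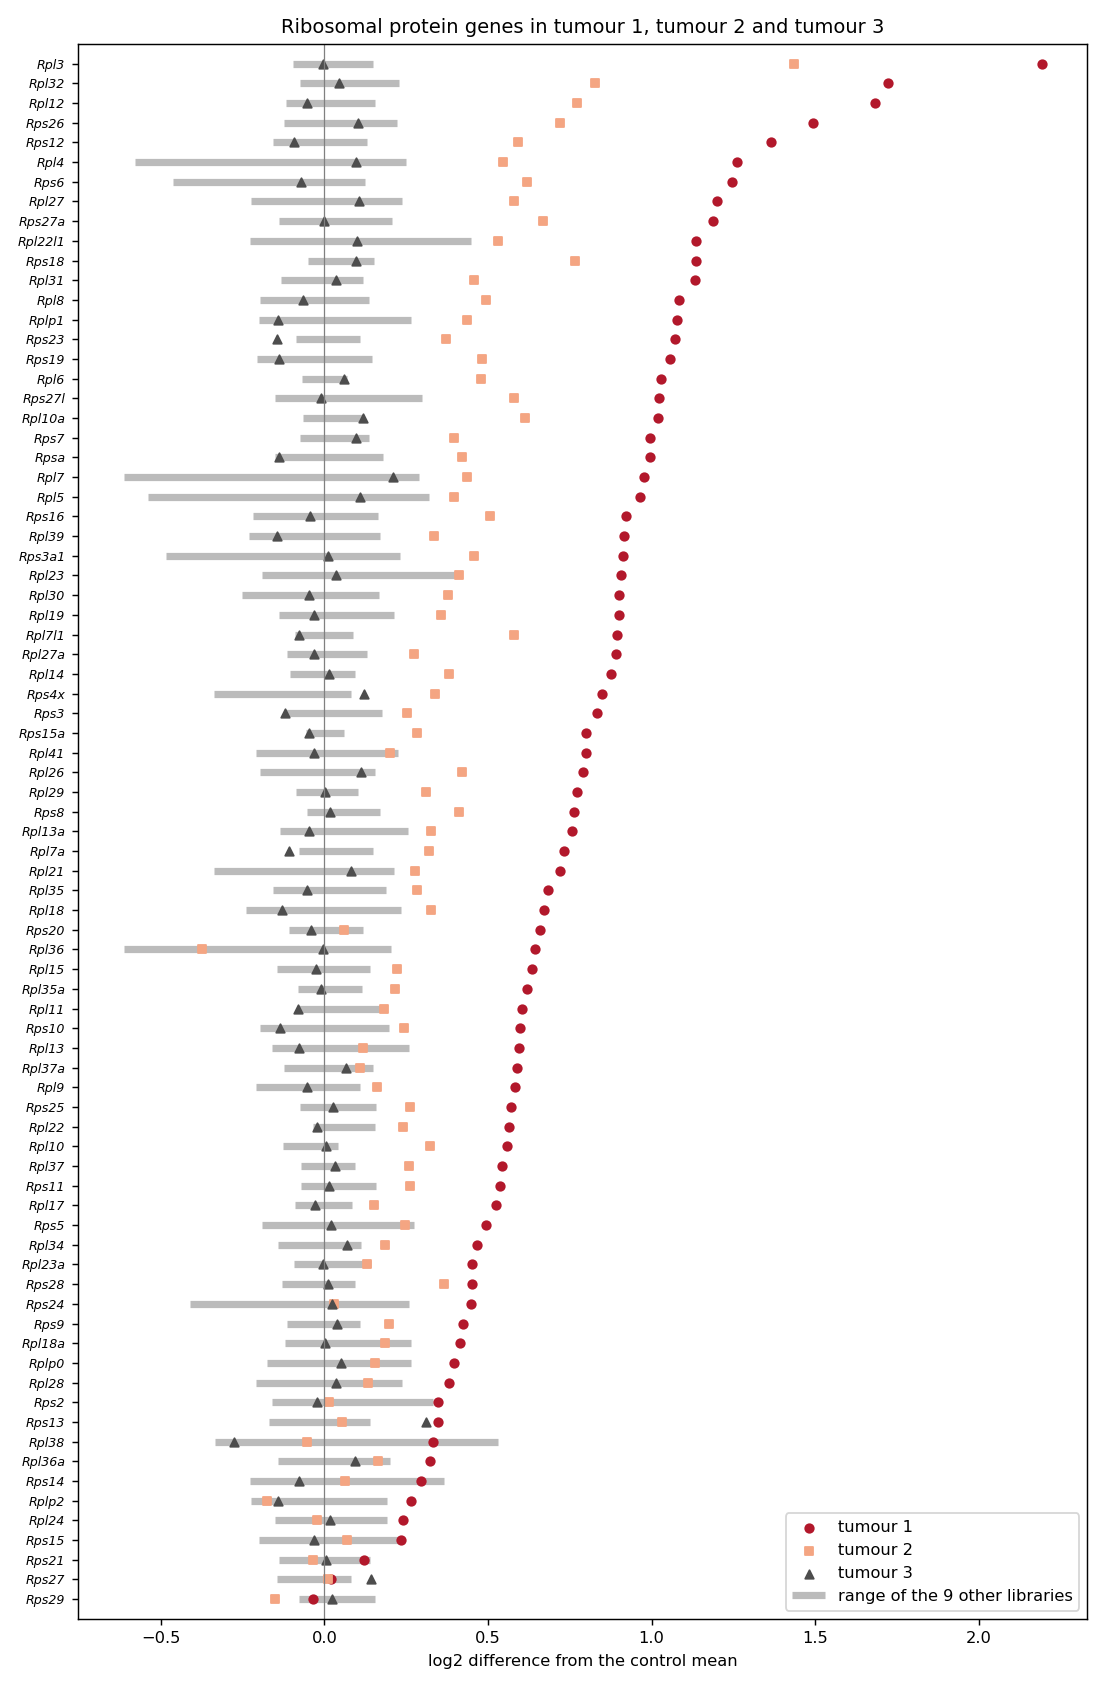
Log2 difference from the control mean (x axis) of 79 of the 80 members (rows, sorted by tumour 1; 1 member is not shown) in tumour 1, tumour 2 and tumour 3, over a grey bar that spans the 9 libraries of the other groups. Rpl3, in the top row, reaches 2.19 in tumour 1 and 1.44 in tumour 2, and Rps29, in the bottom row, is at -0.036 in tumour 1.

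Some members also have roles outside the ribosome. Rpl5 and Rpl11, which with 5S RNA restrain Mdm2 when ribosome assembly fails, had 645 and 329 scaled CPM in tumour 1, 435 and 245 in tumour 2 and 356 and 204 in tumour 3. Their control ranges were 283 to 366 and 204 to 230.2 scaled CPM, so tumour 1 and 2 were above them. Rps27a, made as a fusion with ubiquitin, had 395, 276 and 173 scaled CPM in tumour libraries, against 170.1, 179 and 171 in control libraries. Rpsa, also known as a laminin receptor, had 1513, 1016 and 690 scaled CPM in tumour libraries, against 692, 754 and 837 in control libraries.

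Of the other named members, Rps3, at the mRNA entry and also a DNA repair enzyme, had 605, 405 and 312 scaled CPM in tumour libraries, against 312, 335 and 375 in control libraries. Rps19, the gene most often mutated in Diamond-Blackfan anaemia in humans, had 273, 183 and 119 scaled CPM in tumour libraries, against 125, 124 and 145 in control libraries. Rpl13a, which also silences inflammatory mRNAs, had 676, 500.3 and 386 scaled CPM in tumour libraries, against 364, 386 and 454 in control libraries. In all 3, tumour 1 and 2 were above the controls and tumour 3 was not. Rps14, the haploinsufficient gene of the human 5q- syndrome, differed less, with 429, 364 and 330.3 scaled CPM in tumour libraries, against 323, 317 and 414 in control libraries. Rpl10, which is among the last proteins added to the large subunit, had 740, 629 and 504 scaled CPM in tumour libraries, against 498, 491 and 517 in control libraries. Rps6 was at 38.5, 24.8 and 15.1 scaled CPM in tumour libraries, against 17.4, 16.3 and 14.3 in control libraries, and its level is uncertain as said above.

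Rpl3l ran opposite to its partner Rpl3 in tumour 1 and tumour 2. It had 57.2, 155 and 376 scaled CPM in tumour 1, 2 and 3, against 318, 319 and 363 in control libraries, and 298 to 328 in tumour trained and 320.4 to 350 in trained libraries. Tumour 1 and 2 were below and tumour 3 above every other library. Per kilobase, Rpl3l made up 7.05% to 69.6% of Rpl3l and Rpl3 together in tumour, 62.4 to 68.0% in tumour trained, 63.7 to 66.5% in trained and 65.1 to 69.1% in control libraries. The log2 difference of Rpl3l in tumour 1 was -2.54 ± 0.14 (adjusted p 1.60e-07, edgeR) and in tumour 2 -1.11 ± 0.13 (adjusted p 0.000113). For the group it was -0.77 ± 0.47 and not called (adjusted p 0.245). Eef1a2, the muscle form of the elongation factor, was also lower in both, with 361, 1202 and 1949 scaled CPM in tumour libraries, against 2144, 1948 and 2132 in control libraries. Its ubiquitous partner Eef1a1 had 6294, 3131 and 1149 scaled CPM in tumour libraries, against 1016, 1109 and 1065 in control libraries. The log2 differences of Eef1a2 were -2.52 ± 0.17 in tumour 1 and -0.79 ± 0.15 in tumour 2 (adjusted p 4.25e-07 and 0.00234, edgeR).

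**Figure D4:**
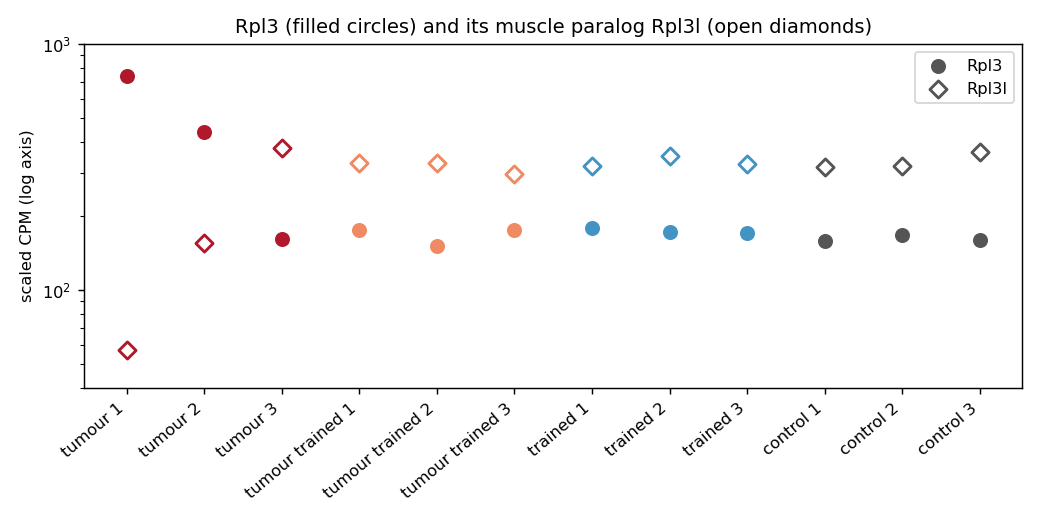
Levels of Rpl3 (filled circles) and Rpl3l (open diamonds) in each library (x axis) in scaled CPM (y axis, log scale). Rpl3l is above Rpl3 in 10 libraries and below it in tumour 1 and tumour 2.

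Rpl22l1, the paralog of Rpl22, had 26.4, 17.2 and 12.6 scaled CPM in tumour libraries, against 11.4, 12.6 and 11.4 in control libraries, and Rpl22 had 257, 205 and 171 against 169, 182 and 170. Rps27l, a p53-induced paralog of Rps27, had 106, 77.5 and 51.3 scaled CPM in tumour libraries, against 51.7, 55.2 and 48.5 in control libraries. Its share of the pair with Rps27, per kilobase, was 20.2%, 15.7% and 10.2% in tumour libraries and 10.2 to 12.2% in control libraries. Rpl7l1, which works in ribosome assembly, made up 5.27 to 7.001% of its pair with Rpl7 in tumour and 5.51 to 7.32% in control libraries. These paralogs resemble their partners in sequence, and how shared reads were divided is not given in the sources used here.

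Tumour trained against tumour libraries gave the reverse lean, since the same tumour libraries were on the other side. Rpl3 was lower and none higher, which is 1.25% of members against 9.05% of all genes called in either direction (1.79% higher and 7.25% lower). The median log2 difference was -0.37 over members and -0.039 over all genes. Over members it was -0.17 without tumour 1 and -0.50 without tumour 3. At an unadjusted p below 0.05 there were 32 members, against 31.9% of all genes, and DESeq2 called 13, against 18.6% of all genes. Rpl3 had 175, 151 and 176 scaled CPM in tumour trained libraries, against 741, 438 and 161 in tumour libraries, and tumour 3 fell inside the tumour trained range. The log2 difference was -1.42 ± 0.39 with an adjusted p of 0.0471 (edgeR), turned to 0.038 without tumour 1 and 2, and was -1.79 without tumour 3. Left out singly, any other library ended the call.

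In 29 of 80 members all tumour trained libraries were below all tumour libraries, tumour 3 included, against 14.5% of all genes. Rps26 had 244, 229.6 and 228 scaled CPM in tumour trained libraries, against 701, 410 and 267 in tumour libraries, with a log2 difference of -0.97 ± 0.28 (adjusted p 0.0502, edgeR), and -0.53 without tumour 1. Rpl27, of the large subunit, had 211, 190.1 and 219 scaled CPM in tumour trained libraries, against 511, 332 and 239 in tumour libraries, with a log2 difference of -0.80 ± 0.24 (adjusted p 0.0555), and -0.47 without tumour 1. Without tumour 1 and 2 the median over members was -0.043, and no member was called. Among the least different were Rps24 (-0.010), Rpl24 (-0.069) and Rps29 (0.089), the last of which was -1.26 with the cardiomyocyte scaling, where the median of all genes was -1.38.

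No ribosomal protein gene passed the test between trained and untrained mice without the cells. Trained against control libraries gave 0 members called by edgeR, 0 at an unadjusted p below 0.05 and 0 by DESeq2. Of all genes 0% were called by edgeR and 0.0235% by DESeq2, and 2.18% had an unadjusted p below 0.05 in edgeR. The median log2 difference was 0.024 over members and 0.0091 over all genes, with a range between -0.16 and 0.17. The smallest p was that of Rps29, which had 261, 257 and 258 scaled CPM in trained libraries, against 222, 227 and 255 in control libraries. All trained libraries were above all control libraries there, by a log2 difference of 0.14 ± 0.13 with an adjusted p of 1 (edgeR). The same separation was seen in 2 of 80 members upward and 0 downward, against 4.04% and 5.44% of all genes.

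Tumour trained against trained libraries also gave 0 members called by edgeR, 0 at an unadjusted p below 0.05 and 0 by DESeq2, beside 0% of all genes called by edgeR and 1.17% at an unadjusted p below 0.05. The median log2 difference was -0.067 over members and 0.0065 over all genes. All tumour trained libraries were below all trained libraries in 11 members and above in 2, against 8.05% and 7.9% of all genes. Rpl18, of the large subunit, had 210.4, 226 and 211 scaled CPM in tumour trained libraries, against 232, 292 and 245 in trained libraries, a log2 difference of -0.25 ± 0.20 (adjusted p 1, edgeR). Rps2 had 987, 946 and 980.0 scaled CPM in tumour trained libraries, against 1147, 1330 and 965 in trained libraries, and these overlapped.

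Tumour trained against control libraries gave 0 members called by edgeR, 0 at an unadjusted p below 0.05 and 0 by DESeq2, beside 0% of all genes called by edgeR and 6.46% at an unadjusted p below 0.05. All tumour trained libraries were above all control libraries in 12 members and below in 6, against 21.9% and 17.4% of all genes. Rpl22l1 had the smallest p, with 14.7, 16.1 and 16.2 scaled CPM in tumour trained libraries, against 11.4, 12.6 and 11.4 in control libraries. These did not overlap, with a log2 difference of 0.41 ± 0.26 and an adjusted p of 0.804 (edgeR). Rpl5 had 398, 410 and 413 scaled CPM in tumour trained libraries, against 348, 366 and 283 in control libraries, and Rpl23, which also binds Mdm2, had 233, 238 and 234 against 189, 198 and 213. A fit of these groups alone called 2 members, Rpl22l1 and Rpl23, with log2 differences of 0.40 and 0.22. The share of all genes called in that fit is not given here, so this count cannot be set against it.

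The interaction asks whether the tumour difference depended on training. Of all genes 0.0235% were called by edgeR and 2.15% by DESeq2. None of the members was called by either, and 9 had an unadjusted p below 0.05 in edgeR, against 14.4% of all genes. The median interaction was -0.40 over members and -0.082 over all genes, and all 80 were below 0. Rpl3 had an interaction of -1.52 ± 0.54 (adjusted p 0.294, edgeR). Without tumour 1 the median over members was -0.18. That median was -0.51 without tumour 3 and -0.058 without tumour 1 and 2.

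Assembly factors of the ribosome were higher in tumour 1 and tumour 2. Of 52 such factors, 5 were higher in tumour against control libraries and none lower, against 5.33% of all genes called higher, with a median log2 difference of 0.93. Nop56, of the box C/D particles that methylate ribosomal RNA, had 225, 96.3 and 33.5 scaled CPM in tumour libraries, against 27.7, 27.6 and 29.0 in control libraries, and Nhp2, of the box H/ACA particles, had 122, 71.5 and 22.3 against 18.2, 19.5 and 15.9. In both genes all tumour libraries were above all control libraries, with log2 differences of 2.07 ± 0.49 and 2.01 ± 0.43 (adjusted p 0.0414 and 0.0390, edgeR). Taken singly, 47 of the 52 (90.4%) were higher in tumour 1, 32 (61.5%) in tumour 2 and 0 in tumour 3, against 35.6%, 19.7% and 0.861% of all genes. In tumour trained against tumour libraries 16 (30.8%) were lower, against 7.25% of all genes. Of 12 tested genes of RNA polymerase I and its factors, 1 (8.33%) was higher in tumour against control libraries, against 5.33% of all genes. It was Taf1d, at 2.61 ± 0.63 on the log2 scale (adjusted p 0.0427, edgeR). In tumour 1, 8 of the 12 (66.7%) were higher and 2 (16.7%) lower, against 35.6% and 31.4% of all genes. In tumour 2, 5 (41.7%) were higher and 0 lower, against 19.7% and 13.2%.

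Myc, which drives transcription of ribosome genes, had 98.5, 40.02 and 7.20 scaled CPM in tumour libraries, against 3.45, 5.35 and 5.15 in control libraries, a log2 difference of 3.39 ± 0.70 (adjusted p 0.0390, edgeR). Its partner Max had 84.2, 75.5 and 86.2 scaled CPM in tumour libraries, against 58.0, 46.3 and 45.4 in control libraries. Taken singly, tumour 1, 2 and 3 had log2 differences of 0.75 ± 0.14, 0.60 ± 0.15 and 0.79 ± 0.14 for Max. Of 24 tested growth-control genes these 2 (8.33%) were higher in tumour against control libraries and none lower, against 5.33% and 1.46% of all genes. The median log2 difference over that list was -0.093 in tumour 1 and 0.021 in tumour 2, against 0.097 and 0.082 over all genes. Of 38 initiation factors 0 were called by edgeR, with a median of 0.38, and 23 (60.5%) were higher and 3 lower in tumour 1, against 35.6% and 31.4% of all genes. Another list held 16 genes of elongation, its regulation and TOP mRNAs. Of these 3 (18.8%) were higher in tumour against control libraries (Eef1a1, Pabpc1 and Eef2k) and 0 lower, against 5.33% and 1.46% of all genes. In tumour 1, 10 were higher and 4 lower (62.5% and 25%), against 35.6% and 31.4% of all genes. In tumour 2, 9 were higher and 2 lower (56.2% and 12.5%), against 19.7% and 13.2%. Eef2k had 61.8, 60.8 and 75.4 scaled CPM in tumour libraries, against 48.8, 47.7 and 44.1 in control libraries.

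Genes for the proteins of the mitochondrial ribosome were lower in tumour 1 and tumour 2. Of these 75 genes 0 were called in tumour against control libraries, with a median log2 difference of -0.37. In tumour 1, 48 were lower and 4 higher, in tumour 2, 43 were lower and 0 higher, and in tumour 3 none was called, against 31.4%, 13.2% and 0.548% of all genes called lower. Of 38 proteasome genes, 12 (31.6%) were higher and 8 (21.1%) lower in tumour 1, near or below the shares of all genes called there (35.6% and 31.4%). Rack1, a signalling scaffold on the small subunit, had 795, 538 and 359 scaled CPM in tumour libraries, against 338, 378 and 394 in control libraries, and Fau, the fusion that yields another small-subunit protein, had 234, 201 and 192 against 181, 198 and 205.

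The members' transcript length and GC content were set beside their levels. In tumour 1 the median log2 difference was 0.88 in the 27 longest (914 bases or more), 0.72 in the 27 of middle length and 0.57 in the 26 shortest (597 bases or fewer). In tumour 2 these medians were 0.34, 0.32 and 0.19. Across the 80 members, Spearman's correlation of the log2 difference with the GC content of the transcript was 0.54 in trained 2 and 0.60 in control 3. It ran between -0.63 and -0.13 in the other 10 libraries, whose control mean includes control 3. These members share libraries and depth and are not independent, so the values describe the libraries only.

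Trained 2 was the most uneven of the libraries outside the tumour group, with an SD between members of 0.21 on the log2 scale. Rpl4, which lines the exit tunnel, had 566, 346 and 614 scaled CPM in trained libraries, against 523, 553 and 477 in control libraries. Rpl7 had 361, 225 and 420.2 scaled CPM in trained libraries, against 363, 385 and 291 in control libraries. For both genes trained 2 lay below all other libraries. Rps14 had 298, 450.1 and 340.5 scaled CPM in trained libraries, against 323, 317 and 414 in control libraries, so trained 2 was on the high side for it.

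**Figure D5:**
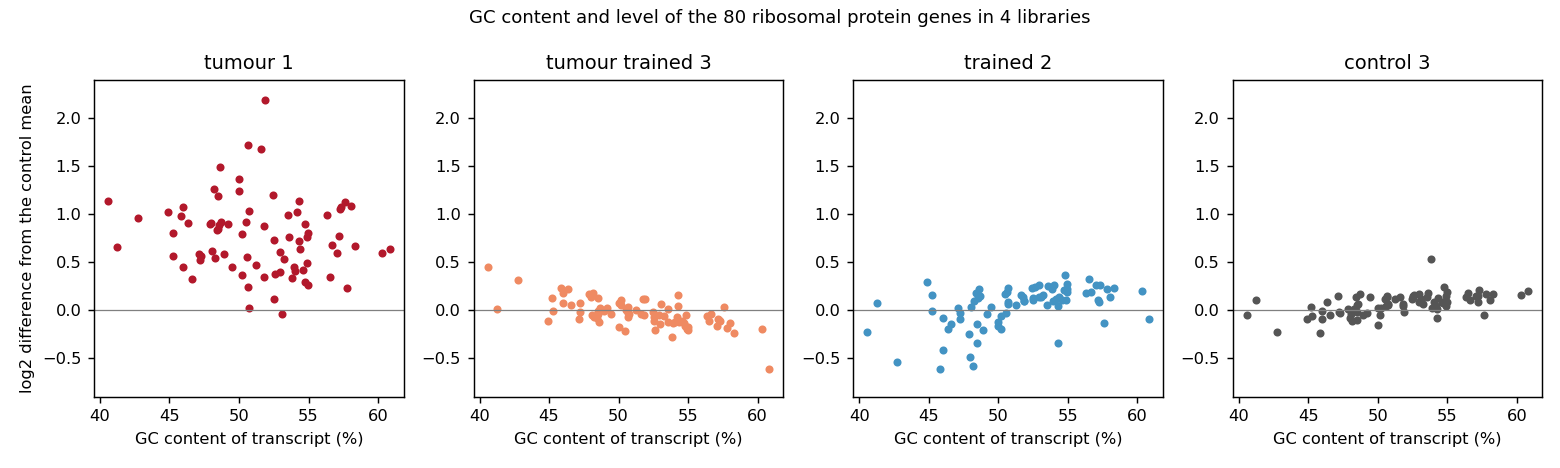
Log2 difference of each of the 80 members from its control mean (y axis) against the GC content of its transcript (x axis, percent) in tumour 1, tumour trained 3, trained 2 and control 3. The points rise with GC content in trained 2 and control 3 (Spearman 0.54 and 0.60) and fall in tumour trained 3 (-0.63).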

How the data were processed

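Heart RNA was sequenced in 12 libraries of 4 groups. The authors deposited 1 table of estimated counts per gene, without normalization. HISAT2 2.2.1, featureCounts and the builds GRCm39 and mm10 are named in the submitters' processing notes. The annotation, the strand setting and the rule for shared reads are not stated. Between 7.09% and 8.92% of values per library were not whole. Reads of antisense or overlapping genes may therefore be mixed.

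Counts were rounded and tested with edgeR 4.0.16 in R 4.3.3 (TMM, default filter by group, 12778 of 17397 genes, 8 residual degrees of freedom). A second fit gave each tumour library its own mean (6 residual degrees of freedom). SEs are the log2 difference divided by the square root of F. Scripts were tested on simulated counts. Replicates differed by 3.67 to 370 chi-square units per gene, so none was merged. A count of 3 equals 0.225 to 0.339 CPM. Intervals cover counting error only. Log2 differences of single libraries in figures use scaled CPM plus 0.5. Transcript lengths and GC content are those of the GENCODE M21 (GRCm38) principal transcript. Sequences are from RefSeq.

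Named were members at the ends of each comparison by p or size, the highest and lowest levels, paralogs, members with known roles and up to 4 genes per pathway list by p. Some genes that this rule takes are not reported here. Members, lists and rules were chosen with earlier results of these data known. The mitochondrial ribosome and proteasome genes were taken by symbol. Alternatives were DESeq2 1.42.0, other scalings and filters, robust dispersion, a replicate block, only the groups compared, and leaving out libraries.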

Additional observations from a re-analysis of the deposited data

How the results depend on the processing

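In tumour against control, where 1 member was called, the count was 0 with DESeq2's size factors, with the stricter filter, with robust dispersion, with only the groups compared and without tumour 1 and 2, and it was 8 with library size alone, 8 with DESeq2 and 80 with the cardiomyocyte scaling. Leaving out 1 library gave 0 to 48. In tumour trained against tumour, where 1 was called, it was 2 with DESeq2's size factors and with the stricter filter, 6 with library size alone, 13 with DESeq2, 80 with the cardiomyocyte scaling, and 0 with robust dispersion, with only the groups compared and without tumour 1 and 2. Leaving out 1 library gave 0 to 45. Tumour trained against control gave 2 with only the groups compared, and the interaction gave 0 to 25 on leaving out 1 library. In tumour 2 alone the count of 26 was 17 with DESeq2's size factors, 58 with library size alone and 80 with the cardiomyocyte scaling, and 13 to 39 on leaving out 1 library, and in tumour 1 alone 62 to 72. The cause of these moves was not tested. Apart from DESeq2, the shares of all genes called in these alternative fits are not given here, so the counts cannot be set against them. Tumour 3 alone, tumour trained against trained, and trained against control gave 0 in every fit run.

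With the cardiomyocyte scaling, log2 differences turned to 1.57 for Rplp2, 1.59 for Rpl38 and 1.39 for Rps29 in tumour against control, and to -1.26 for Rps29 in tumour trained against tumour. The medians of all genes were then 1.54 and -1.38. In tumour 1 alone Rps29 turned to 2.35, and to 0.37 with library size alone, where the medians of all genes were 2.48 and 0.50. In tumour 2 alone they turned to 0.54 for Rpl36, 0.74 for Rplp2, 0.82 for Rpl38 and 0.77 for Rps29, all below the median of all genes of 1.00. These turns follow a shift of all genes. Rpl3 turned to 0.038 in tumour trained against tumour without tumour 1 and 2. Rpl3 was called in 18 of 18 alternatives in tumour 1 and in tumour 2 alone, in 6 of 23 in tumour against control (log2 0.0052 to 3.33) and in 8 of 23 in tumour trained against tumour.

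With the replicate number as a replicate block, 0 members were called in tumour against control and in tumour trained against tumour. Of 18 pairs of libraries with the same number, 3 had deviations correlated above 0.1 (-0.30 to 0.26). Pairs with different numbers were not set beside them, so whether equal numbers mean a pairing or batch cannot be told from these values. Each group had 3 libraries, and their number, with the spread of the tumour group, limits the group tests.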
